A study of Mus musculus with 2 samples.

Results

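The genes described here are 10 that act in the mucus of colonic goblet cells: Muc2, Fcgbp, Zg16, Clca3, Agr2, Spink4, Retnlb, Ang4, Tff3 and Sytl2. They were chosen by name, with earlier results of these data known. All 10 of them have a row among the 35529 genes of the deposited table. The comparison was between 2 libraries of total RNA from C57BL/6 wild-type mice. The first was made from colon adenomas of mice given azoxymethane (AOM), a carcinogen, and dextran sodium sulfate (DSS), which damages the colonic mucosa, and it is called the adenoma pool. The second was made from normal colon of mice given neither agent and is called the control pool. Each library pooled RNA from 6 individuals, so each group holds 1 library, no difference has a replicate check, and no p-value is given. The doses, the times of AOM and DSS and the ages of the mice are not given in the sources used here. All but 1 encode proteins that enter the secretory pathway. The exception is Sytl2, a cytosolic protein of granule release that is not itself secreted.

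Goblet cells line the crypts of the colon and fill their upper part with granules of tightly packed mucin. The mucin polymer is linked by disulfide bonds in the endoplasmic reticulum, receives dense O-linked sugars in the Golgi, and swells into a gel once it is released. The gel in the colon has an inner layer that keeps bacteria away from the epithelium, and proteins secreted with the mucin cross-link it, cut it or bind bacteria.

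Expression was measured as RPKM, which divides the reads of a gene by its length in kilobases and by the size of the library. The libraries held 33174626 reads in the adenoma pool and 29548883 in the control pool, as recovered from the values. Log2 fold changes set adenoma RPKM over control RPKM after 1 RPKM was added to both, so they are too small for low genes. The threshold was 2-fold on that scale. Folds are ratios of RPKM, and the range beside each is a 95% exact binomial interval that covers counting error only. The ratio between the pools was lower for longer transcripts. Among mRNA genes its median on the log2 scale was 0.78 for the 10% with the shortest transcripts and -0.77 for the 10% with the longest. A log2 fold change with this trend removed is therefore given for each of the 10 genes and, for other genes named, where it moves them across the threshold.

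In the adenoma pool 8 of the 10 genes were lower by 2-fold or more and 1, Spink4, was higher by that much. Agr2 was on neither side. A filter of 1 RPKM in at least 1 of the pools left 16517 genes, of which 11.0% were lower and 14.0% higher by 2-fold or more. The median log2 fold change of the 10 genes was -1.76, beside -0.02 over those 16517 genes. All 10 passed this filter. Because the 10 genes were chosen with earlier results of these data known, the contrast with all genes is a description and not a test. In bulk tissue, fewer goblet cells and less RNA per goblet cell cannot be told apart.

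**Figure D1:**
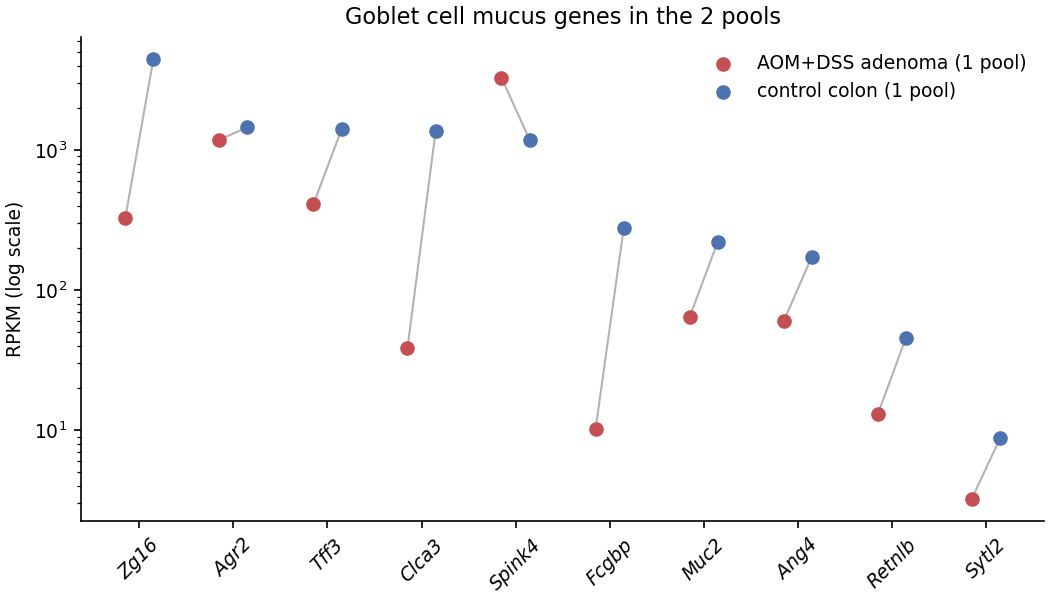
RPKM on a log axis of the 10 goblet cell mucus genes, ordered by their level in the control pool; each dot is 1 pooled library, with the adenoma pool (red) left of the control pool (blue) and a line joining them. Zg16 stood at 325 RPKM in the adenoma pool and 4487 RPKM in the control pool, and Spink4 was the gene with the higher adenoma value, at 3289 against 1179 RPKM.

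Of the 4 proteins that build the mucus gel or act within it, 3 showed the widest gaps of the 10 genes. Clca3, a metalloprotease of the mucus that cuts Muc2 and is now called Clca1, stood at 38.3 RPKM in the adenoma pool, against 1359 RPKM in the control pool, 35.5-fold lower (34.5 to 36.5). Its gene lies on chromosome 3, from 145003817 to 145032776 on the minus strand (GRCm38, GENCODE M21, as for the other positions given). By level it ranked 2708th among all genes in the adenoma pool and 31st in the control pool. Its log2 fold change was -5.11 as deposited and -4.93 with the length trend removed.

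Fcgbp, a large protein with repeated von Willebrand D domains that is bound to Muc2 in mucus, stood at 10.2 RPKM in the adenoma pool, against 278 RPKM in the control pool. That is 27.3-fold lower (26.3 to 28.4), and its rank was 6602 in the adenoma pool and 322 in the control pool. Its log2 fold change was -4.64 as deposited and -4.05 with the length trend removed. Its gene is on chromosome 7, from 28071236 to 28120862 on the plus strand. Zg16, a small lectin-like protein that binds the cell wall of Gram-positive bacteria, was the 7th most abundant of all genes in the control pool by RPKM and the 427th in the adenoma pool. It stood at 325 RPKM in the adenoma pool, against 4487 RPKM in the control pool, 13.8-fold lower (13.5 to 14.1), with a log2 fold change of -3.78 as deposited and -4.74 with the length trend removed. Its gene is also on chromosome 7, from 127050156 to 127087328 on the minus strand.

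Muc2 itself, the gel-forming mucin, differed less than these 3 partners. It stood at 64.1 RPKM in the adenoma pool, against 222 RPKM in the control pool, 3.46-fold lower (3.37 to 3.56). Its interval lies wholly outside those of Clca3, Fcgbp and Zg16. The gene is on chromosome 7, from 141690340 to 141754693 on the plus strand. Its longest coding transcript in GENCODE M21 has 2926 bases, and the length the authors divided by is not given in the sources used here, so the level of Muc2 beside that of another gene is less certain than its ratio between the pools. The reads behind its interval, and its value with the length trend removed, also rest on those 2926 bases.

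The promoters of Muc2 and Fcgbp are shown because these partners in the gel were lower together but by different amounts. The RefSeq promoter table (GRCm38.p6) holds 4 of the 10 genes, which are Muc2, Fcgbp, Agr2 and Ang4. The sequences are the 250 bases before the RefSeq start, 5′ to 3′ on the strand of the gene. Capitals mark CAGCTG, an E-box that basic helix-loop-helix factors such as Atoh1 can bind.
Muc2: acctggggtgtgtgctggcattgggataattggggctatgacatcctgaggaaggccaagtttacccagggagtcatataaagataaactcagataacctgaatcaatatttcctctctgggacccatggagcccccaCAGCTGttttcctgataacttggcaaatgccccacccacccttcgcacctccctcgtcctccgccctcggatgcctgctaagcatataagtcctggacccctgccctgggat
Fcgbp: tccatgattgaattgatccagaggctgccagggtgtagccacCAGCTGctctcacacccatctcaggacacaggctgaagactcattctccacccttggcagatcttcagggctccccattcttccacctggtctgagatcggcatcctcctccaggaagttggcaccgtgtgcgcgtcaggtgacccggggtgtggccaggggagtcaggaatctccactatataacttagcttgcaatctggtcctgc

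The Muc2 sequence is chr7:141690090-141690339 and the Fcgbp sequence is chr7:28070986-28071235, both on the plus strand. Both hold 1 copy of CAGCTG, which reads the same on both strands, at -112 to -107 in Muc2 and -208 to -203 in Fcgbp, counted from the base before the start as -1. The same letters occur in 13% of the 32851 promoter windows of this length in the table. Another 4 motifs were searched on both strands: TGTTTAC, a forkhead motif, in 3.17% of windows, TTTATGG, a caudal (Cdx) motif, in 2.43%, CCGGAT, an ETS motif, in 4.94%, and GACGTG, a motif of the unfolded protein response and Creb3l family, in 5.2%. None of these 4 was in the Muc2 or Fcgbp window. No motif match overlapped another.

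The trefoil peptide, the protease inhibitor and the folding enzyme went different ways. Tff3, a trefoil peptide of epithelial repair, stood at 409 RPKM in the adenoma pool, against 1405 RPKM in the control pool, 3.44-fold lower (3.34 to 3.54). This interval overlaps that of Muc2, and the log2 fold changes of these genes were both -1.78 as deposited. With the length trend removed they were -2.74 for Tff3, which has a short transcript, and -1.73 for Muc2. The Muc2 value rests on the uncertain length of 2926 bases. The Tff3 gene is on chromosome 17, from 31125306 to 31129646 on the minus strand.

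Agr2, a protein disulfide isomerase of the endoplasmic reticulum that mucin folding needs, remained close to its control level, at 1184 RPKM in the adenoma pool against 1456 RPKM in the control pool. It was 1.23-fold lower (1.21 to 1.25), a log2 fold change of -0.30. The transcript is short, and with the length trend removed the value was -1.25, past the 2-fold threshold. It was 0.45, the other direction, with the pools scaled to epithelial markers. The call on Agr2 therefore depends on the scale. Its gene is on chromosome 12, from 35992907 to 36004087 on the plus strand.

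The Agr2 and Ang4 promoters are the remaining ones of the 4 available, and neither holds CAGCTG. In Agr2 the capitals mark TTTATGG read on the opposite strand, at -48 to -42. The Ang4 window, shown all in lower case, holds none of the 5 motifs.
Agr2: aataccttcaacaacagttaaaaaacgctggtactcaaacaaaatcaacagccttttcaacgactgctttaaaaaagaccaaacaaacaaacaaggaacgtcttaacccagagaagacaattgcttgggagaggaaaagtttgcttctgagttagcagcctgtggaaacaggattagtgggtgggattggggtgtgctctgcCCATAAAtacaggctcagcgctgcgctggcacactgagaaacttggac
Ang4: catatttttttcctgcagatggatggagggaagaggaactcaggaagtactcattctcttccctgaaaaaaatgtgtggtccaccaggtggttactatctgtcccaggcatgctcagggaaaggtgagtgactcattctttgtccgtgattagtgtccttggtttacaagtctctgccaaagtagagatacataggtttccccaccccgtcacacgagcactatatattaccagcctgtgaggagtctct

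These windows are chr12:35992675-35992924 on the plus strand for Agr2 and chr14:51773591-51773840 on the minus strand for Ang4. The absence of a motif says only that those letters are not in the window. Whether any motif bears on the levels of these genes was not tested.

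Spink4, a Kazal-type inhibitor of serine proteases, was the exception in direction. It stood at 3289 RPKM in the adenoma pool, against 1179 RPKM in the control pool, 2.79-fold higher (2.74 to 2.84). By level it ranked 15th among all genes in the adenoma pool and 41st in the control pool. Its log2 fold change was 1.48 as deposited and 0.51 with the length trend removed, which is under the 2-fold threshold. Its sign was positive under all 8 alternatives tried. The gene is on chromosome 4, from 40920052 to 40931395 on the plus strand.

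Both antimicrobial products were lower. Retnlb, a resistin-like protein that damages Gram-negative bacteria, stood at 12.9 RPKM in the adenoma pool, against 45.7 RPKM in the control pool, 3.53-fold lower (3.10 to 4.03). These values correspond to 299 whole reads in the adenoma pool and 940 in the control pool at 696 bases, the length of its GENCODE transcript. Its interval overlaps that of Muc2 as deposited, but its log2 fold change of -1.74 was -2.70 with the length trend removed. Its gene is on chromosome 16, from 48816856 to 48818892 on the plus strand. Ang4, a ribonuclease with microbicidal activity that goblet and Paneth cells make in the mouse, stood at 59.9 RPKM in the adenoma pool, against 174 RPKM in the control pool, 2.90-fold lower (2.73 to 3.09), an interval that lies outside that of Muc2. Its log2 fold change was -1.52 as deposited and -2.48 with the length trend removed. Its gene is on chromosome 14, from 51763878 to 51773590 on the minus strand.

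Sytl2 encodes a synaptotagmin-like effector of Rab27 that tethers granules to the plasma membrane, and it was the least abundant of the 10. It stood at 3.24 RPKM in the adenoma pool, against 8.72 RPKM in the control pool, 2.69-fold lower (2.40 to 3.03). Its interval overlaps that of Ang4. With the length trend removed its log2 fold change was -0.99, just short of the threshold, against -1.20 as deposited. Its gene is on chromosome 7, from 90302252 to 90410719 on the plus strand.

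In order of the ratio between the pools as deposited, the genes ran from Clca3 through Fcgbp, Zg16, Retnlb, Muc2, Tff3, Ang4, Sytl2 and Agr2 to Spink4. Of the neighbours in this order, Retnlb and Muc2, Muc2 and Tff3, and Ang4 and Sytl2 had overlapping intervals, and the other neighbours did not. The order changed with the length trend removed: Zg16 was then lower than Fcgbp, Tff3, Retnlb and Ang4 were lower than Muc2, and Agr2 was lower than Sytl2. The place of Muc2 in that order rests on its uncertain length. At 4-fold or more, 3 of the 10 genes were lower and 0 higher, beside 1.08% lower and 2.02% higher among all genes. The plot of all genes shows Clca3, Fcgbp and Zg16 along the lower edge of the cloud and the next 5 as a closer group.

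**Figure D2:**
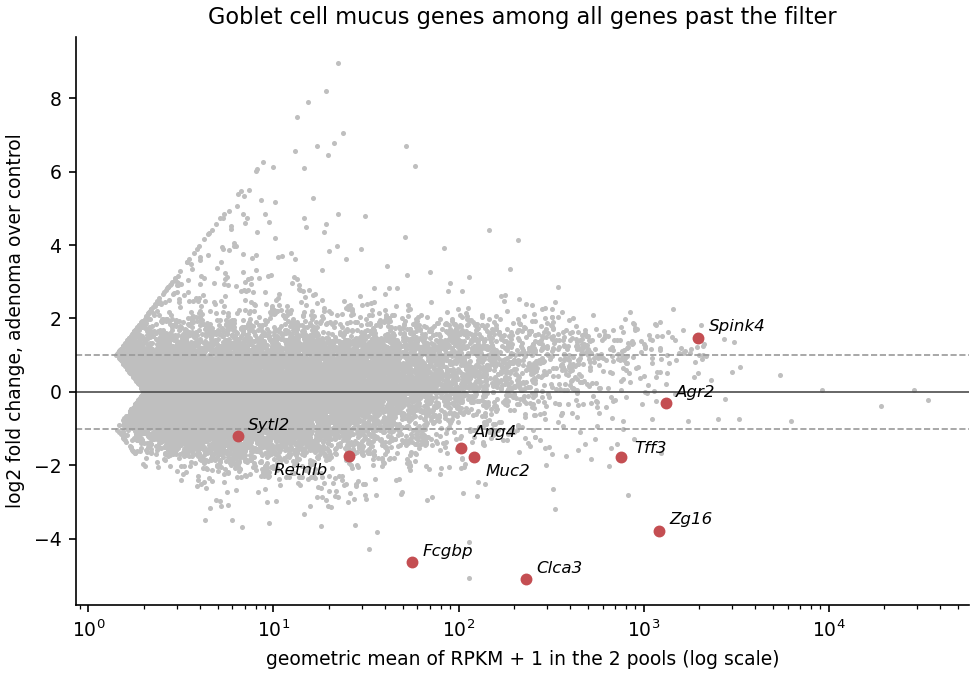
Log2 fold change (adenoma over control, RPKM + 1) against the geometric mean of RPKM + 1 on a log axis, for the 16517 genes past the filter of 1 RPKM (grey) and the 10 goblet cell mucus genes (red); dashed lines mark 2-fold. Clca3 lies at -5.11, Fcgbp at -4.64 and Zg16 at -3.78, and Spink4 lies at 1.48.

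The summed level of the 10 genes was 5396 RPKM in the adenoma pool and 10614 RPKM in the control pool. As a share of all RPKM this was 0.651% in the adenoma pool and 1.69% in the control pool. The make-up of this RNA also differed. Spink4 held 61.0% of the summed RPKM of the 10 genes in the adenoma pool and 11.1% in the control pool, whereas Zg16 held 6.03% in the adenoma pool and 42.3% in the control pool. Agr2 held 21.9% in the adenoma pool and 13.7% in the control pool, and Clca3 held 0.710% in the adenoma pool and 12.8% in the control pool. Without Spink4 and Agr2, an omission made after their values were seen, the other 8 genes summed to 923 RPKM, 0.111% of all RPKM, in the adenoma pool and to 7979 RPKM, 1.27%, in the control pool.

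**Figure D3:**
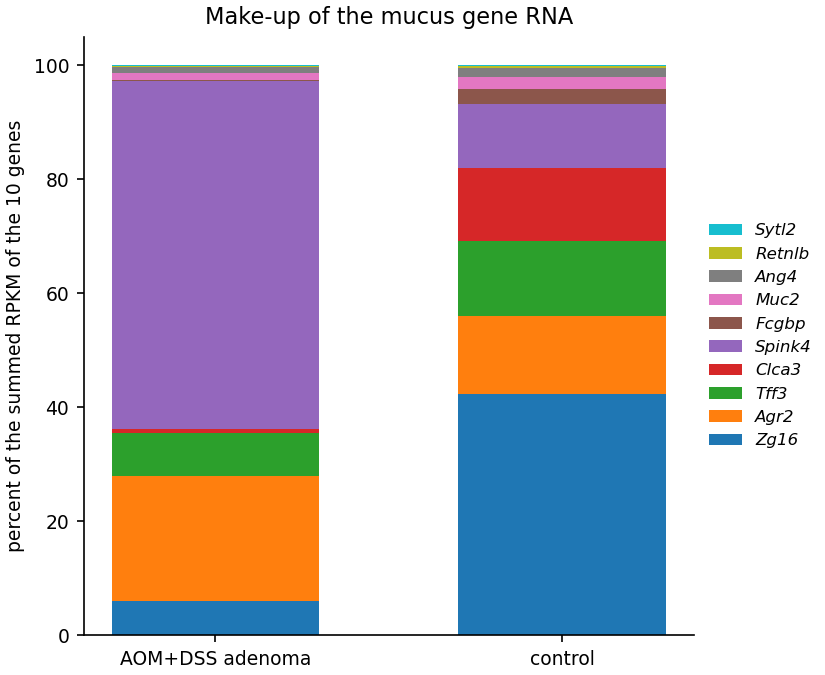
Percent of the summed RPKM of the 10 genes that each gene held, as stacked bars, for the adenoma pool (left) and the control pool (right), 1 library each. Spink4 takes 61.0% of the adenoma bar and Zg16 takes 42.3% of the control bar.

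Ratios within a library do not depend on how the libraries are scaled to each other, but they carry the length trend. Relative to Muc2, Tff3 stood at 6.37 in the adenoma pool and 6.33 in the control pool, and Retnlb at 0.202 in the adenoma pool and 0.206 in the control pool. As deposited, these pairs of ratios differ by less than the counting error of the genes, and with the length trend removed Tff3 and Retnlb were lower relative to Muc2. Clca3 stood at 0.598 times the Muc2 level in the adenoma pool and at 6.12 times in the control pool, and Fcgbp at 0.159 times in the adenoma pool and 1.25 times in the control pool. Zg16 stood at 5.08 times the Muc2 level in the adenoma pool and 20.2 times in the control pool. Agr2 and Spink4 went the other way. Agr2 stood at 18.5 times the Muc2 level in the adenoma pool and 6.56 times in the control pool. Spink4 stood at 51.3 times in the adenoma pool and 5.31 times in the control pool. With the length trend removed both were higher relative to Muc2 by less. Their log2 fold changes were then -1.25 for Agr2 and 0.51 for Spink4, beside -1.73 for Muc2, whose length is uncertain.

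Scaling moved the size of the differences and changed some of the calls, those of Ang4, Sytl2, Agr2 and Spink4. With both pools rescaled to equal sums of RPKM, a shift of -0.40 on the log2 scale, the same 8 and 1 genes were past 2-fold, beside 19.1% lower and 7.31% higher among all 16517 genes. Scaling the pools by the median ratio of 12 pan-epithelial markers, a shift of 0.74, left 6 genes at least 2-fold lower, with Ang4 at -0.79 and Sytl2 at -0.60, and kept Spink4 higher at 2.22. Muc2, Retnlb and Tff3 were only just past the threshold on that scale, each at -1.04. On the same scale 3.18% of all genes were lower and 34.4% higher. With the length trend removed, 8 of the 10 genes were lower and 0 higher by that much, beside 11.2% lower and 5.16% higher among the 15278 genes with a length. Agr2 joined the lower genes there and Sytl2 left them.

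**Figure D4:**
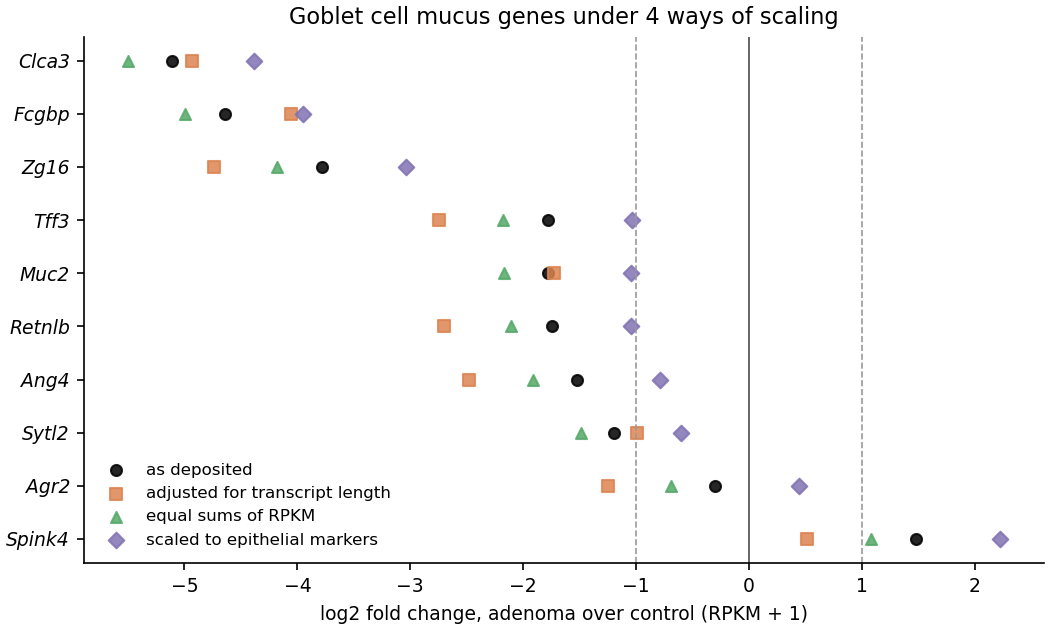
Log2 fold change (adenoma over control, RPKM + 1) of each of the 10 genes as deposited (circles), with the trend over transcript length removed (squares), at equal sums of RPKM (triangles) and scaled to pan-epithelial markers (diamonds); dashed lines mark 2-fold. Clca3, Fcgbp and Zg16 lie at or below -3.04 on every scale shown, and Agr2 runs from -1.25 to 0.45.

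Relatives of the 10 genes were lower in the adenoma pool in some families and not in others. Of 28 relatives with a row, 12 passed the filter, 3 of them lower and 2 higher by 2-fold or more. Both higher ones, Retnlg and Tff1, passed it only through the adenoma pool. With the length trend removed 6 were lower and 1 higher. The median was -0.82, but -0.13 over all 28 and -0.20 scaled to epithelial markers. In the Clca cluster of chromosome 3, Clca6, now called Clca4a, stood at 10.05 RPKM in the adenoma pool and 37.1 RPKM in the control pool, 3.69-fold lower (3.44 to 3.97), a smaller gap than that of Clca3. The row named Clca1 holds the gene now called Clca3a1 and stood at 0.994 RPKM in the adenoma pool and 1.52 RPKM in the control pool. Beside Retnlb on chromosome 16, Retnla stood at 2.32 RPKM in the adenoma pool and 7.07 RPKM in the control pool, whereas Retnlg, which neutrophils express, stood at 10.01 RPKM in the adenoma pool and 0.445 RPKM in the control pool. Reads of close paralogs in the Clca, Ang and Retn families may be shared between copies, so values of single members are uncertain.

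The other gel-forming mucins and trefoil peptides, which belong to the stomach and airway, were low in both pools. Next to Muc2 on chromosome 7, Muc6 stood at 0.473 RPKM in the adenoma pool and 0.0127 RPKM in the control pool. The log2 fold change of Muc6, which did not pass the filter, was 0.54 as deposited and 1.14 with the length trend removed. Muc5ac was listed at 0 in the adenoma pool and at 0.00995 RPKM in the control pool, and Muc5b was listed at 0 in both. Next to Tff3 on chromosome 17, the gastric trefoil gene Tff1 stood at 2.02 RPKM in the adenoma pool and 0.0708 RPKM in the control pool, about 47.1 and 1.47 reads. Its log2 fold change was 1.49 as deposited and 0.54 with the length trend removed. Tff2 stood at 0.0528 RPKM in the adenoma pool and was listed at 0 in the control pool. Spink3, a relative of Spink4 now called Spink1, was lower, at 151 RPKM in the adenoma pool against 286 RPKM in the control pool, 1.89-fold (1.81 to 1.97). Its log2 fold change was -0.91 as deposited and -1.87 with the length trend removed. The mucin and trefoil neighbours were chosen for their place beside Muc2 and Tff3.

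Transcription factors listed for the secretory lineage were lower in part. Of 12 transcription factors, all past the filter, 4 were at least 2-fold lower and 0 higher, with a median of -0.69 as deposited and -0.03 scaled to epithelial markers. Creb3l1, a membrane-bound factor of the secretory pathway, stood at 19.9 RPKM in the adenoma pool and 107 RPKM in the control pool. Atoh1, which commits crypt cells to the secretory fate, stood at 3.76 RPKM in the adenoma pool and 18.6 RPKM in the control pool, 4.93-fold lower (4.31 to 5.66). Klf4, a factor of goblet cell differentiation, stood at 32.2 RPKM in the adenoma pool and 133 RPKM in the control pool. The fourth was Cdx2, at 7.43 RPKM in the adenoma pool and 30.1 RPKM in the control pool. Cdx2 is also counted among the colon identity genes, so it is not particular to the secretory list. Spdef, which drives goblet cell maturation, was 1.65-fold lower (1.52 to 1.79), at 16.1 RPKM in the adenoma pool against 26.5 RPKM in the control pool. Xbp1, the most abundant of the list in the control pool, stood at 133 RPKM in the adenoma pool and 140 RPKM in the control pool.

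Folding genes of the endoplasmic reticulum, the step at which Agr2 acts, had a median near 0. Of 18 genes, 2 were lower and 2 higher by 2-fold or more, with a median of -0.31 as deposited and 0.42 scaled to epithelial markers. Ern2, a stress sensor found in mucus-secreting epithelium, stood at 7.94 RPKM in the adenoma pool and 24.2 RPKM in the control pool, 3.05-fold lower (2.81 to 3.32), and its ubiquitous relative Ern1 at 2.36 RPKM in the adenoma pool and 7.73 RPKM in the control pool. The higher ones were Tmed6, a cargo receptor of early secretion, at 13.1 RPKM in the adenoma pool against 2.0 RPKM in the control pool, and the translocon subunit Sec61b, at 519 RPKM in the adenoma pool against 207 RPKM in the control pool. Of these, 2 came under the threshold with the length trend removed: Sec61b, with a log2 fold change of 1.32 as deposited and 0.36 then, and Ern1, with -1.38 as deposited and -0.81 then. The chaperone Calr stood at 260 RPKM in the adenoma pool and 456 RPKM in the control pool.

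Mucin-type O-glycosylation genes had the lowest median of the pathway lists as deposited; with the length trend removed, genes that process secreted mucus were lower, at -1.49. Of 22 past the filter, out of 26, 14 were at least 2-fold lower and 0 higher, with a median of -1.21 as deposited, -1.09 with the length trend removed and -0.58 scaled to epithelial markers. B4galnt2, which makes the Sda sugar of colonic mucin, stood at 14.5 RPKM in the adenoma pool and 79.9 RPKM in the control pool, 5.53-fold lower (5.13 to 5.97). B4galnt3 stood at 6.70 RPKM in the adenoma pool and 35.0 RPKM in the control pool. The sialyltransferase St6galnac6, the most abundant, stood at 176 RPKM in the adenoma pool and 363 RPKM in the control pool.

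Of 16 genes of the mucus granule and its release 5 were at least 2-fold lower and 0 higher. Their median was -0.63 as deposited, -0.19 with the length trend removed and -0.02 scaled to epithelial markers. Nlrp6, an inflammasome sensor linked to mucus granule release, stood at 9.21 RPKM in the adenoma pool and 52.9 RPKM in the control pool, and Bcas1 at 6.57 RPKM in the adenoma pool and 30.6 RPKM in the control pool. Rab27a, the small GTPase that Sytl2 binds, was named after its values were seen and stood at 1.95 RPKM in the adenoma pool and 10.8 RPKM in the control pool, 5.52-fold lower (4.74 to 6.44). The granule SNARE Vamp8 stood at 269 RPKM in the adenoma pool and 147 RPKM in the control pool, under the threshold.

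Genes that process secreted mucus or supply its fluid had 7 of 15 at least 2-fold lower and 0 higher. Their median was -0.79 as deposited and -0.07 scaled to epithelial markers. Slc26a3, a chloride-bicarbonate exchanger of absorptive cells, stood at 6.46 RPKM in the adenoma pool and 143 RPKM in the control pool. Tgm3, a transglutaminase that cross-links proteins, stood at 26.6 RPKM in the adenoma pool and 467 RPKM in the control pool. The antibacterial protein Lypd8, listed under its older name 2210415F13Rik, was the most abundant at 4738 RPKM in the adenoma pool and 8210 RPKM in the control pool. The log2 fold change of 2210415F13Rik was -0.79 as deposited and -1.49, past the threshold, with the length trend removed. Mep1b, a meprin subunit, stood at 6.26 RPKM in the adenoma pool and 25.0 RPKM in the control pool.

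Goblet cell markers outside the 10 genes had a median closer to 0. Of 19 with a row, 6 were lower and 1 higher by 2-fold or more. Their median was -0.34 as deposited, -1.01 with the length trend removed and 0.39 scaled to epithelial markers. Fam55b, now called Nxpe2, stood at 5.81 RPKM in the adenoma pool and 48.5 RPKM in the control pool, and Rep15, a Rab15 effector, at 18.0 RPKM in the adenoma pool and 76.8 RPKM in the control pool. Tmsb10, which many cell types express, was the higher one, at 436 RPKM in the adenoma pool against 137 RPKM in the control pool. With the length trend removed its log2 fold change of 1.66 was 0.70, and 10 of the 19 markers were then lower and 0 higher. Oit1, the most abundant, stood at 873 RPKM in the adenoma pool and 1107 RPKM in the control pool, and its log2 fold change was -0.34 as deposited and -1.01 with the length trend removed.

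Among the 10 genes and the pathway lists, the 5 with a log2 fold change nearest to that of Muc2 as deposited were Tff3, Clca6, Gsdmc, Retnlb and Mep1b. Their differences from it, over 2 libraries, ran from -0.06 for Mep1b to 0.03 for Retnlb.

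**Figure D5:**
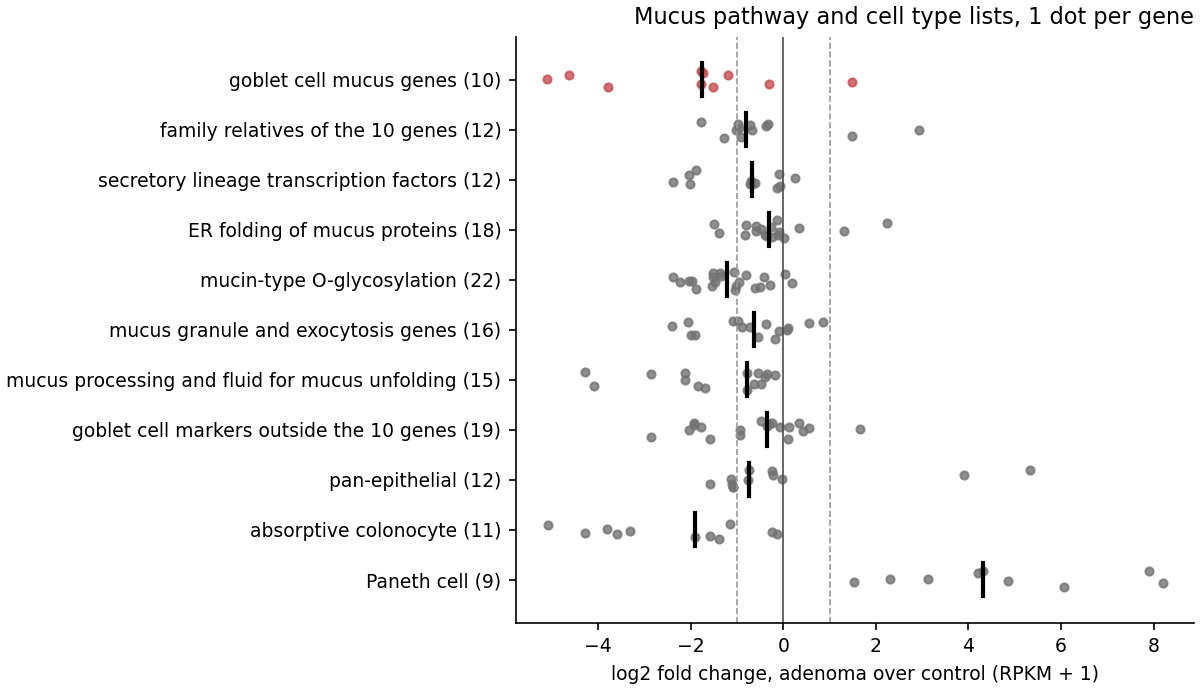
Log2 fold change (adenoma over control, RPKM + 1) of the genes past the filter in 11 lists, 1 dot per gene with a vertical bar at the list's median and the number of genes in brackets; dashed lines mark 2-fold. The 10 mucus genes (red) have a median of -1.76, O-glycosylation genes of -1.21 and Paneth cell markers of 4.32, a value that depends on the added 1 RPKM because 4 of those markers were listed at 0 in the control pool.

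Markers of other cell types moved in the same comparison. Colon identity genes were present in both pools, 3 of 6 of them lower by 2-fold or more in the adenoma pool. Hoxb13 stood at 262 RPKM in the adenoma pool and 315 RPKM in the control pool. Of 4 small intestinal genes past the filter 2 were lower. Among these, Apob passed it only through the control pool, at 0.618 RPKM in the adenoma pool and 3.55 RPKM in the control pool. Fabp2, the most abundant of the 4 in the control pool, stood at 32.4 RPKM in the adenoma pool and 37.6 RPKM in the control pool. Its log2 fold change was -0.21 as deposited and -1.07, past the threshold, with the length trend removed. Sis, the sucrase of the small intestine, did not pass the filter. It was listed at 0 in the adenoma pool and stood at 0.00575 RPKM in the control pool. Of 12 pan-epithelial markers, 5 were lower and 2 higher by 2-fold or more. Their median was -0.74, with a sum of 6282 RPKM in the adenoma pool and 9752 RPKM in the control pool. Relative to Epcam, Muc2 stood at 0.0992 in the adenoma pool and 0.295 in the control pool. The size of this gap depends on the marker used. The log2 fold change was -0.22 for Epcam but -1.59 for Cdh1 of the same list, beside -1.78 for Muc2. Of 11 absorptive colonocyte markers past the filter, 9 were lower and 0 higher by 2-fold or more. Their median was -1.92 as deposited, -1.24 scaled to epithelial markers and -2.55 with the length trend removed. The medians of the 10 mucus genes on those scales were -1.76, -1.04 and -2.59. The list summed to 588 RPKM in the adenoma pool and 2489 RPKM in the control pool.

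Paneth cell markers stood the other way, and Ang4 is shared with that cell type. All 9 past the filter were higher by 2-fold or more, although 5 of them passed it only through the adenoma pool, and the list of 10 summed to 1415 RPKM in the adenoma pool and 81.3 RPKM in the control pool. Defa24, Defa17, Defa5 and Habp2 were listed at 0 in the control pool, and lysozyme Lyz1 stood at 337 RPKM in the adenoma pool and 37.8 RPKM in the control pool. Of 6 enteroendocrine markers past the filter 4 were at least 2-fold lower, with a median of -1.40 as deposited. The 8 leukocyte markers had a median of -0.44, with Ptprc, Itgam, Emr1, Csf1r and Ly6g lower by less than 2-fold as deposited. With the length trend removed the log2 fold change of Ly6g went from -0.43 to -1.32, past the threshold. Only S100a8 of this list was higher by 2-fold or more, at 120 RPKM in the adenoma pool and 0.777 RPKM in the control pool, and it reached the filter only in the adenoma pool. Of 9 markers of stroma, muscle and vessel 1 was lower by that much, Myh11, at 61.0 RPKM in the adenoma pool and 178 RPKM in the control pool. With the length trend removed its log2 fold change of -1.53 was -0.998, and 0 of the 9 were then past the threshold. Of 7 stem and cycling crypt markers past the filter 3 were higher, among them Lgr5, at 4.34 RPKM in the adenoma pool and 0.920 RPKM in the control pool, which reached the filter only in the adenoma pool. Mki67 of the same list went the other way, at 7.73 RPKM in the adenoma pool and 13.2 RPKM in the control pool. Of 6 tuft cell markers 2 passed the filter, among them Avil, at 19.9 RPKM in the adenoma pool and 1.73 RPKM in the control pool. The other 4 were under 1 RPKM in both pools and lower in the adenoma pool, such as Trpm5, at 0.0413 RPKM in the adenoma pool and 0.548 RPKM in the control pool, and the median over all 6 was -0.09. Pancreatic acinar markers summed to 1.49 RPKM in the adenoma pool and 1.60 RPKM in the control pool. The part of these cell types in the levels of the 10 genes was not tested.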

How the data were processed

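Total RNA was extracted with Trizol and the RNA of 6 individuals was pooled per group, per the labels and the series' design text. The authors deposited 1 table of RPKM values with 1 column per pool, per the file headers. The submitters' processing notes name the build GRCh37, which is a human assembly, although the symbols are mouse symbols. Aligner, counter and annotation are not given in the sources used here, and both Proton and Illumina sequencing are named. Another 2 columns of the table, with remarks on a few rows, were not used.

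Read totals were recovered from short RNA genes of known RefSeq length, at which 146 of 216 (67.6%) in the adenoma pool and 131 of 198 (66.2%) in the control pool gave reads within 0.01 of a whole number. Reads per gene used a GENCODE M21 transcript length at which both pools gave whole reads or whole twelfths of a read, and otherwise the longest coding transcript, so they and their 95% exact binomial (Clopper-Pearson) intervals are approximate. Intervals cover counting error only, not animals or library preparation. A length was found for 15278 of the 16517 genes (92.5%) that reached 1 RPKM in a pool. The length trend was the running median over 20 bins of length, fitted on mRNA genes. The members and lists were chosen with earlier results of these data known. All 10 members were named, with Atoh1, Spdef, Creb3l1, Klf4 and Ern2; the rule also selected, from each other list, its most abundant control gene and up to 2 genes past 2-fold at each end. Not every marker gene so selected is reported, and some named genes, such as Sis, Mki67 and Trpm5, were not selected by it. Of the list entries, 3 had no row of their own by symbol or synonym, and 1 shared a row with another entry. Calculations used Python 3.11.15, numpy 2.4.6, pandas 2.3.3 and scipy 1.17.1, and were tested on simulated libraries.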

Additional observations from a re-analysis of the deposited data

How the results depend on the processing

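No paired analysis was possible because each group holds 1 library, and no library could be left out. The median log2 fold change of the 10 genes was -1.76 as reported. It was -1.79 with a pseudocount of 0.1, -1.61 with a pseudocount of 5, -2.14 at equal sums, -1.73 scaled by the median ratio and -1.73 by a trimmed mean of log ratios, -1.85 by the upper quartile, -1.04 by pan-epithelial markers, -2.59 with the length trend removed, and -1.78 without Sytl2. The count of genes at least 2-fold lower lay between 6 and 8 under these alternatives and was 3 at 4-fold, and the count higher was 0 with the length trend removed and 0 at 4-fold. Among mRNA genes alone the 10 genes held 1.12% of RPKM in the adenoma pool and 2.65% in the control pool. Agr2 changed sign under 1 of 8 alternatives and the other 9 genes under 0. The medians of the lists of folding genes, goblet cell markers, tuft cell, leukocyte, stromal and acinar markers changed sign under 1 alternative each. The cause of these shifts was not tested. Retnlb rests on the fewest reads of the 10 genes, 299 in the adenoma pool and 940 in the control pool, and has the widest interval relative to its fold.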
